A study of Drosophila melanogaster with 6 samples.

Results

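The Jig binding sites of heterochromatin and of chromosome 4 were 243 of the 1931 nuclear sites in the list that the study called from chromatin immunoprecipitation sequencing (ChIP-seq) of Drosophila melanogaster larvae (1938 sites in all, 7 of them mitochondrial). They were chosen by position alone: every site on chromosome 4 or Y, and every site whose summit lay past 22 Mb on 2L, past 23 Mb on 3L, before 4.2 Mb on 3R or past 21 Mb on X. This gave 56 sites on 2L, 66 on 3L, 19 on 3R, 43 on X, 49 on chromosome 4 and 10 on Y, and the remaining 1250 sites of 2L, 3L, 3R and X served as euchromatin. The 438 sites of 2R were not used. JIG-GFP larvae (3 samples) carried a transgene for Jig, the product of CG14850, with green fluorescent protein at its carboxyl terminus under an inducible UAS promoter, and wild-type larvae (3 samples, titled YW) carried no tagged protein. All were whole 3rd instar larvae at the 12 h stage, many larvae to a sample, and the antibody was anti-GFP in both groups. The GAL4 line that drove the transgene in the ChIP larvae is not given in the sources used here, so the tissues that held tagged protein are not known. The 3 JIG-GFP samples had been pooled and called against the 3 wild-type samples pooled, so no value has a spread between samples and no test over samples was possible. Intervals given here are 95% intervals for the counting of sites alone. A site can pass this call where Jig-GFP was bound or where JIG-GFP larvae held more copies of a sequence than wild-type larvae, and these cannot be told apart in a comparison of 2 stocks.

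Pericentromeric heterochromatin is the compact, late-replicating DNA around centromeres, marked by methylation of histone H3 at lysine 9 and bound by heterochromatin protein 1. It is rich in transposons and satellites, is under-replicated in the polytene tissues of larvae, and holds both the ribosomal RNA genes of X and Y and the flamenco (flam) locus, a source of piRNAs that silence retrotransposons. Chromosome 4 is a small autosome coated by heterochromatin protein 1 and by the protein POF, yet most of its genes are active, while the Y consists almost wholly of repeats around a few male fertility genes.

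The sequences at the summits of the site with the highest fold in each block, and of the site with the largest pileup of all, show what kind of DNA carried the strongest signal. They run 5′ to 3′ on the plus strand of BDGP6, Release 6 (dm6, the build of the deposited coordinates, read from the RefSeq copy), and the 21 capitals are centred on the summit.
2L, chr2L:23332522-23332642: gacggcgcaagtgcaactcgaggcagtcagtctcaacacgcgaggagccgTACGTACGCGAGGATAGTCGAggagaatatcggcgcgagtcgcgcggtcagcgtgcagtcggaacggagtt
3L, lovit, chr3L:25288374-25288494: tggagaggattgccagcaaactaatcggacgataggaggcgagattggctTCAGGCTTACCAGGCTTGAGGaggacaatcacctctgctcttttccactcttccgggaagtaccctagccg
3R, Pzl, chr3R:3056651-3056771: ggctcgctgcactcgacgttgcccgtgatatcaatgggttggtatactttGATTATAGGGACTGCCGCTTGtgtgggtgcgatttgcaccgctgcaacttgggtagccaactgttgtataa
X, flam, chrX:21713609-21713729: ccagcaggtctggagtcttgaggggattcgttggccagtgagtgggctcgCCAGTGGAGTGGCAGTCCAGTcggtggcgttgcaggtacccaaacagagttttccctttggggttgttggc
chromosome 4, HeT-A, chr4:1303407-1303527: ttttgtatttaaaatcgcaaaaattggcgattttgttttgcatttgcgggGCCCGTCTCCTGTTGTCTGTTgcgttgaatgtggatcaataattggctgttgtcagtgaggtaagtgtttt
Y, opus, chrY:788691-788811: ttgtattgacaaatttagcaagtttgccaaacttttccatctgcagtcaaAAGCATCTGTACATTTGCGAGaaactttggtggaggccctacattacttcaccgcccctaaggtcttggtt
X, largest pileup, 28S rRNA pseudogene, chrX:23240373-23240493: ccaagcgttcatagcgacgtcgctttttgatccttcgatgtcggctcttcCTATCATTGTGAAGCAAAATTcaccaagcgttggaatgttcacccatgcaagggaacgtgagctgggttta

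The densities of the blocks lay on both sides of that of euchromatin. The 243 sites lay on 17.9 Mb of known bases, a density of 13.6 per Mb, against 13.3 per Mb for euchromatin (1250 sites on 93.9 Mb), a ratio of 1.02 (95% interval 0.885 to 1.17). Pericentromeric 2L had 37.0 sites per Mb against 20.4 on the rest of its arm, 1.82 times as many (1.35 to 2.40). Chromosome 4 had 36.8 per Mb, 2.76 times the density of euchromatin (2.03 to 3.68). These are the dense blocks. Pericentromeric X had 17.4 sites per Mb, near the 16.7 of the euchromatin of 2L, 3L and 3R together. It was dense only beside its own arm, with 1.62 per Mb on the rest of the X, a ratio of 10.7 (6.68 to 17.3). The euchromatic X, with 34 sites on 21 Mb, was the sparsest of the 4 arms. It is part of the euchromatin against which all blocks together, chromosome 4 and Y were set. Without it the density of euchromatin was 16.7 per Mb instead of 13.3, and ratios to this higher density were not computed. Pericentromeric 3L had 13.2 per Mb against 15.8 on its arm, and the interval of the ratio (0.834, 0.632 to 1.09) included 1. The sparse blocks were pericentromeric 3R, with 4.55 per Mb against 14.5 on its arm (0.314, 0.187 to 0.497), and the Y, with 2.93 per Mb (0.220 of the density of euchromatin, 0.105 to 0.406). Density on Y depends on how much Y DNA the larvae held, and the sex of the larvae is not given in the labels.

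Strong sites were distributed otherwise. The call gives each site a fold enrichment, the pileup of JIG-GFP fragments over the summit divided by a wild-type background. That background is the local wild-type level, but never below a floor of 97.3 fragments, so at sites on the floor the fold is no local ratio. The members with a fold of at least 2 were 83 of 243 (34.2%), against 59 of 1250 sites in euchromatin (4.72%), and 9.53% over all nuclear sites. The difference between members and euchromatin was 29.4 percentage points (23.6 to 35.7). Counted per Mb, there were 4.64 such sites in the blocks and 0.629 in euchromatin, a ratio of 7.38 (5.22 to 10.5). The whole interval lay above 1 in each block but Y: 12.4 (6.08 to 24.8) for 2L, 10.7 (4.71 to 26.6) for 3L, 6.01 (2.16 to 16.5) for 3R, 11 (5.92 to 20.8) for X, each against its own arm, and 8.37 (3.22 to 18.3) for chromosome 4. On Y it was 1.40 (0.281 to 4.30), with 3 sites. Thus pericentromeric 3R had fewer sites per Mb than its arm and more strong ones.

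**Figure D1:**
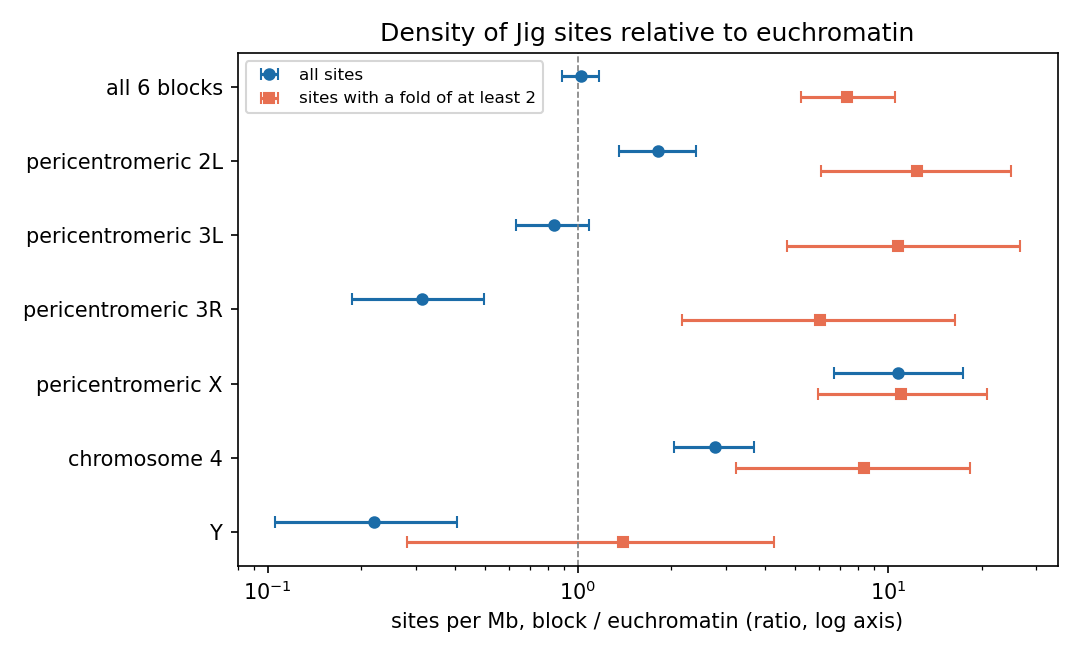
Ratio of sites per Mb in each block to euchromatin (own arm for 2L, 3L, 3R and X, all 4 arms together for chromosome 4 and Y), on a log axis. Points are ratios and bars are 95% intervals for the counting of sites; blue circles count all sites and orange squares only sites with a fold of at least 2, for which the ratio is above 1 in every block, with the interval of Y alone reaching below 1.

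The median fold of the members was 1.71 (1.64 to 1.82), against 1.45 (1.44 to 1.46) in euchromatin. By block it was 1.75 on 2L, 1.63 on 3L, 1.97 on 3R, 2.07 on X, 1.48 on chromosome 4 and 1.78 on Y. The share with a fold of at least 2 was 30.4% on 2L, 31.8% on 3L, 47.4% on 3R, 60.5% on X, 14.3% on chromosome 4 and 3 of 10 sites on Y. In euchromatin this share was 4.46% on 2L, 2.47% on 3L and 2.48% on 3R. The X again stood apart: 58.8% of its 34 euchromatic sites reached a fold of 2, and the difference from its pericentromeric block was 1.64 points (-19.4 to 22.8), so a difference of either sign was not resolved. Chromosome 4 was the block closest to the arms, since its median fold of 1.48 (1.45 to 1.55) overlapped that of the euchromatin of 2L, 3L and 3R, 1.45 (1.44 to 1.46). The call's own score showed the same contrast. A −log10 q above 5 was reached by 157 members (64.6%), against 279 sites in euchromatin (22.3%) and 29.8% over all nuclear sites, a difference of 42.3 points (35.6 to 48.4). All 10 sites on Y and 41 of 43 on X were past this value, while 15 of 49 on chromosome 4 were. The euchromatic X had 94.1% past it, a difference of 1.23 points (-10.4 to 14.9) from its block.

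**Figure D2:**
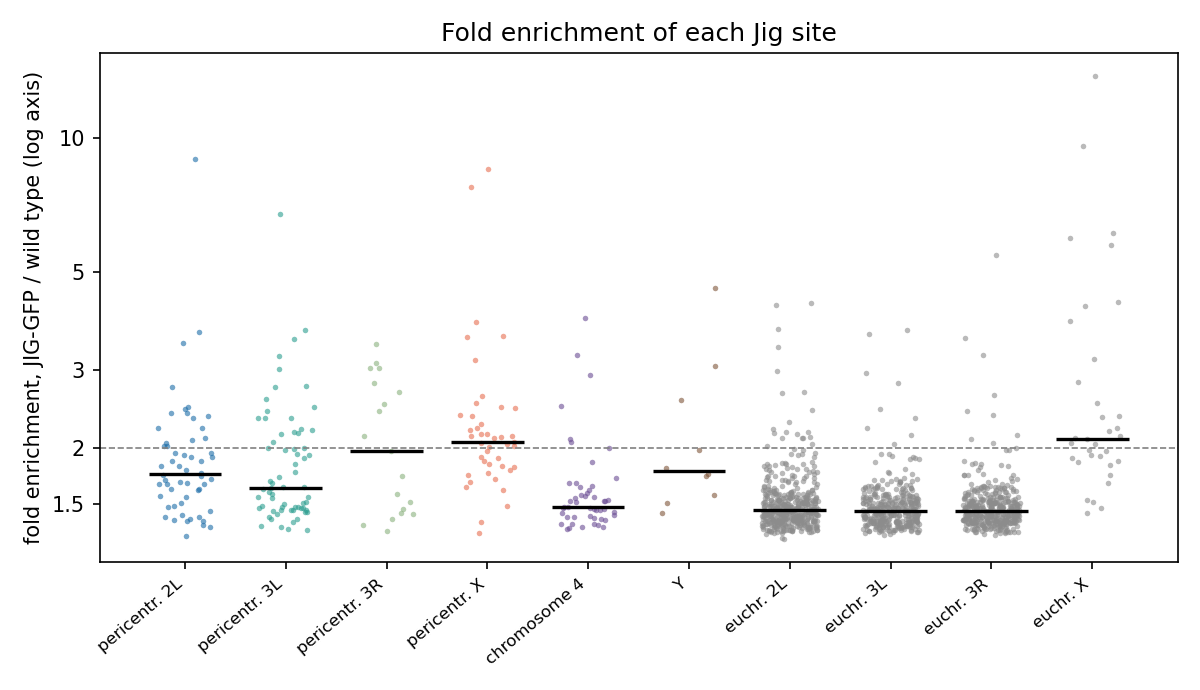
Fold enrichment (JIG-GFP over wild type, log axis) of every site, 1 point per site, in the 6 blocks (coloured) and in the euchromatin of 2L, 3L, 3R and X (grey); black bars are medians and the dashed line is a fold of 2. The medians of the blocks run from 1.48 on chromosome 4 to 2.07 on X, and the highest fold of the blocks is 8.96, on 2L.

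Pileup and width gave a different picture from fold. The median pileup at the summit was 205 fragments (189 to 225) for the members and 161 (160 to 162) for euchromatin. On X it was 573 and on Y 420.5, whereas 2L had 190.5, 3L 195 and chromosome 4 163. The high pileups of X and Y stood on high wild-type backgrounds: the median background was 222 fragments on X and 218 on Y, against 108 in euchromatin. By contrast it was 99 on 2L, 106 on 3L, 102 on 3R and 109 on chromosome 4. The floor of 97.3 fragments was the background at 81 members (33.3%) and 254 euchromatic sites (20.3%), a difference of 13 points (6.93 to 19.5), and at 28 of the 56 sites of 2L. The X went the other way, with 18.6% of the sites of its block and 58.8% of those of its arm on the floor, a difference of -40.2 points (-57.5 to -18.5). Over all blocks members were wider, with a median of 422 bp (401 to 463) against 354.5 bp (346 to 363), and 26 of them (10.7%) exceeded 1000 bp, against 45 euchromatic sites (3.60%). On X the median was 448 bp (320 to 511) in the block and 780 bp (449 to 1214) on the arm, and 6.98% of sites against 35.3% exceeded 1000 bp. The longest member, 5667 bp, was the HeT-A site near the end of chromosome 4. The median GC content was 45.0% for members and 46.6% for euchromatic sites, while the known bases of the blocks as a whole were 39.5% GC and those of euchromatin 42.4%. Over all blocks and over all arms the sites were thus richer in GC than the DNA around them, but on X the intervals of the site medians, for block and arm, included the GC content of the bases around them.

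**Figure D3:**
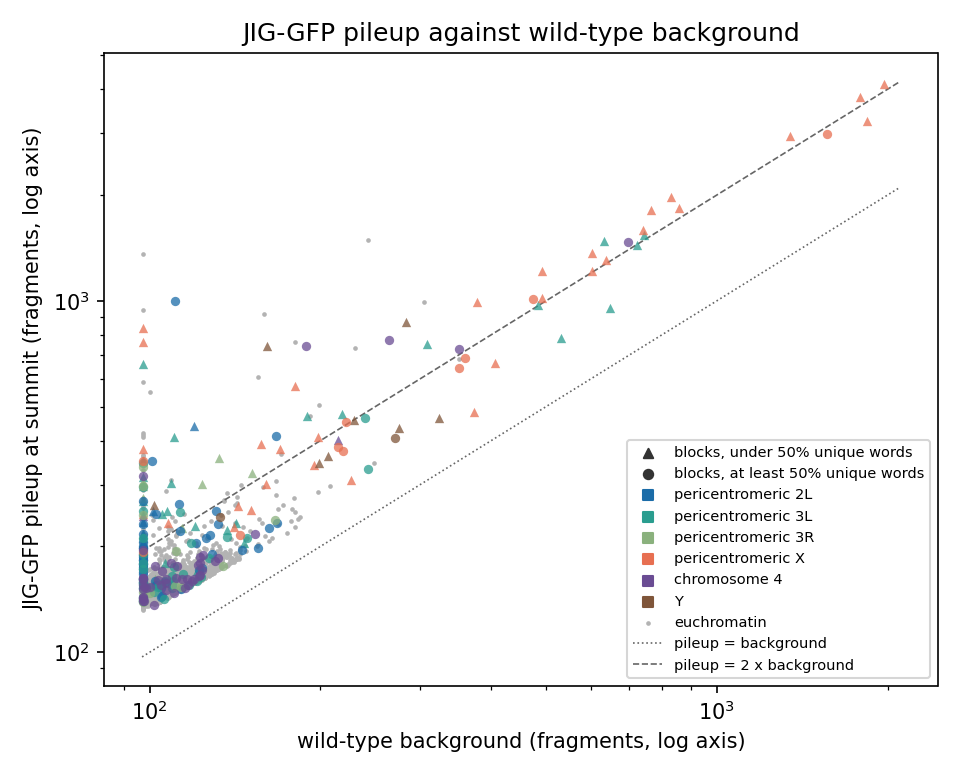
JIG-GFP pileup at the summit against wild-type background, both in fragments on log axes, for each member (coloured by block) and each euchromatic site (grey). Triangles are members in which under 50% of the words are unique in the genome; the dotted and dashed lines mark a pileup equal to the background and 2 times the background, and the 5 largest pileups, 2952 to 4146, lie on backgrounds of 1344 to 1968.

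Much of this DNA cannot be placed with certainty. Reads from a repeat can be assigned to any of its copies, and no filter for such reads is named in the sources used here. To measure this, each site was read in words of 100 bases, and the share of words found at a single place in the genome was taken. In the blocks 54.0% of the known bases were unique by this measure, against 95.7% in euchromatin, and chromosome 4 stood apart from the other blocks at 89.2%. Under 50% unique words were found in 87 members (35.8%), against 25 euchromatic sites (2%). These 87 sites had a median fold of 2.13 (2.01 to 2.27), a pileup of 350 and a background of 143, and 62.1% of them reached a fold of 2. The 156 more unique members had a median fold of 1.56 (1.5 to 1.64) and a pileup of 174.5, and 18.6% reached a fold of 2 (13.3 to 25.4), against 3.43% of the 1225 euchromatic sites of this kind. Among repetitive sites the order was the other way, the 25 euchromatic ones having a median fold of 2.64 (1.98 to 3.54) and 68% at a fold of 2 or more, with intervals that overlapped those of the members. Repeat content therefore moved with fold, and its part in the result was not tested. The repetitive sites were 33 of 43 on X, 29 of 66 on 3L, 8 of 19 on 3R, 8 of 10 on Y, 7 of 56 on 2L and 2 of 49 on chromosome 4. Counting only unique sites per Mb of unique words, chromosome 4 kept a ratio of 2.90 (2.12 to 3.89) and 2L of 2.44 (1.78 to 3.29), while X had 4.86 (2.1 to 10.3) from 10 sites.

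Some sites carry the same sequence at different places, so their values are not independent. When 2 sites were linked by sharing at least 10% of the 50-base words of the shorter, 58 members (23.9%) fell into 21 groups, 10 of which spanned more than 1 block. The lovit site of 3L printed above (fold 6.74, chr3L:25288044-25288706) and a site in flam on X (fold 3.57) had 42% of the flam site's words in common, the flam site being the shorter. A neighbouring lovit site with a fold of 2.01 shared 30.1% of its words with the site of second highest fold on X (fold 7.78, chrX:21533070-21533530). The X site of highest fold, in flam, was linked to no other member by this measure. The Ppr-Y site of Y shared 26.5% of its words with a site on 2L (fold 2.11), and a 2L site of fold 1.62 shared 54.7% of its words with a longer Pzl site of 3R (fold 3.11).

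The site of highest fold on 2L consisted mostly of unique words. It spanned 826 bp between genes (chr2L:23332070-23332895), with a pileup of 1002 fragments on a background of 111 and a fold of 8.96. In it 95.6% of words were unique, whereas 54 of the 83 members with a fold of at least 2 had under 50% unique words. This was usual for 2L, where 12 of the 17 sites with such a fold had at least 50% unique words. The next sites on 2L had folds of 3.67, in a Max retrotransposon (pileup 441), and 3.46, in a 1936 bp site between genes (pileup 351). The sites of 2L were not evenly spread: of the 3 bins of 0.5 Mb past the boundary, the middle and innermost held 26 and 19 sites, and the outermost 11, about as many as the last bin of the arm with 12. Sites that lay in runs of at least 3 with gaps of up to 10000 bp were 26 of the 56 on 2L (46.4%). Over all blocks 88 of 243 sites were in runs (36.2%, 30.4 to 42.4), against 238 of 1250 in euchromatin (19.0%, 17 to 21.3). On chromosome 4, which was equally dense, the count was 6 of 49.

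The largest run lay at light (lt), a gene of 2L encoding a Vps41-type protein for traffic to lysosomes and pigment granules, and known for needing a heterochromatic surrounding to be expressed. The run held 12 sites in 33740 bp (chr2L:22910616-22944355), with folds of 1.61 to 2.75 and a median of 1.89. Within 60 kb of the start of lt there were 16 sites. Of these, 7 overlapped the 18.3 kb gene, and in order from its start their folds were 1.61, 1.67, 2.75, 2.06, 1.71, 1.79 and 1.74. The first 4 lay in introns, the next in coding sequence (2 sites) and the last in an untranslated region, and none of the 16 lay within 1000 bp of the start. Upstream there were 4 sites, from 13.8 kb to 1.35 kb before the start, with folds of at least 1.87, and downstream 5, reaching to 54.4 kb, with folds of 1.66 to 2.37. Of the downstream sites, those with folds of 1.91, 2.37 and 1.66 had cta as their nearest gene, at 14869, 4444 and 2603 bp. At the 7 lt sites pileups were 157 to 269 fragments on backgrounds of 97.3 to 132, and 5 of them consisted of unique words alone.

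**Figure D4:**
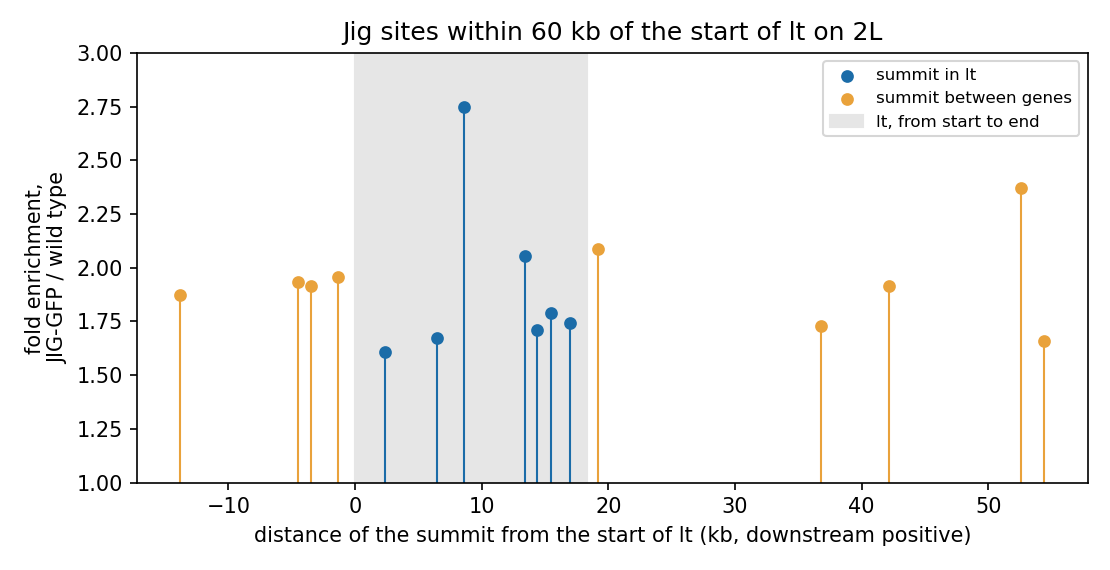
Fold enrichment of the 16 sites within 60 kb of the start of lt, by distance of the summit from the start (kb, downstream positive); blue points lie in lt, yellow points between genes, and the grey band is the gene. The folds lie between 1.61 and 2.75, and sites stand along the whole 18.3 kb of the gene and on both sides of it.

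Other genes of the pericentromeric blocks showed several patterns. Of 18 listed genes that lie in these blocks, 7 held a site. Over all protein-coding genes there it was 5 of 37 on 2L, 8 of 37 on 3L, 3 of 13 on 3R and 0 of 114 on X. Pzl (Piezo-like, a relative of the Piezo mechanosensitive channels) and Myo81F (a myosin) span 709 kb and 1966 kb of 3R, most of it intron. Pzl had 5 intronic sites with folds of 2.13, 3.03, 2.81, 3.11 and 3.44 and pileups of 275 to 337. Myo81F had 3, with folds of 2.42, 2.51 and 3.04. Together they held 8 of the 19 sites of pericentromeric 3R, and 8 of its 9 sites with a fold of at least 2. The 2 genes span much of this block, which has 4.18 Mb of known bases, and the part of their size in these counts was not tested. Snap25, a SNARE protein of synaptic vesicle fusion on 3L, had 5 intronic sites in 225 kb with folds of 2.20, 2.59, 1.98, 1.56 and 2.16, all on the floor background. AGO3, an Argonaute of the piRNA pathway, had a single intronic site with a fold of 3.52 and a pileup of 345, in which 83.1% of words were unique. The site of second highest fold on 3L, 3.70 with a pileup of 411 on 110, lay in an intron of l(3)80Fj and had no unique word, its words having a median of 31 copies in the genome. Dbp80, a DEAD-box RNA helicase, had 3 weaker sites of 1.48 to 1.67. No site lay in cta, RpL5, RpL15, vtd, nvd, spok, Set1, Alg-2, su(f), stnA or stnB. The listed genes with a site had a median length of 159 kb, and those without 16.3 kb (SPoCk included, which lies just outside the border).

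The flam locus of X (chrX:21631891-21790731) held 4 sites, all in introns of its noncoding RNA and all on the floor background of 97.3 fragments. Their folds were 3.57, 8.55, 3.58 and 2.53, on pileups of 350, 839, 351 and 248. The first 3 lay next to each other over G6 and Stalker4 elements and the last over blood and springer elements, retrotransposon fragments of the kind that fill this piRNA cluster. At 16.6% the site of highest fold had few unique words, while the third had 64.2%. The site with a fold of 7.78 lay outside flam, between genes, in a stretch of G, mdg1 and roo fragments (pileup 763). The next on X, with a fold of 3.86 and a pileup of 378, lay in a HMS-Beagle2 element in an intron of lncRNA:CR44997.

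The ribosomal DNA of X gave the largest pileups, with moderate folds. The 17 annotated rRNA genes and pseudogenes span chrX:23200802-23291729, and 19 of the 43 sites of X had their summit there: 11 overlapped rRNA genes, 8 of them with the summit, 5 overlapped R1 elements and 1 R2, retrotransposons that insert into 28S rRNA genes. Pileups were 254 to 4146 fragments with a median of 1217, and wild-type backgrounds were 151 to 1968 with a median of 493. The folds were 1.29 to 2.47 with a median of 2.07, close to the 2.1 of the other 24 sites of X, whose median pileup was 364.5 and background 151. The site printed above in a 28S rRNA pseudogene had a pileup of 4146 on a background of 1968, a fold of 2.11. The next, in an 18S pseudogene, had 3791 on 1788 (fold 2.12). The third, with 3238 on 1838 (fold 1.76), lay between genes further along the X. The next largest pileups, back in the rRNA stretch, were 2985 on 1566 between genes (fold 1.91) and 2952 on 1344 in another 28S pseudogene (fold 2.20). Further along the X, past the last annotated rRNA gene, 7 of 11 sites fell into the same groups of linked sites as sites of the annotated stretch. The link was either direct or through another site past the stretch. The number of rRNA genes is known to differ between fly stocks, and the 2 stocks were not compared for it here. Without the sites and bases of the annotated stretch the density ratio of X was 6.21 (3.53 to 10.8), with the 11 sites past it still counted.

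A group of 4 sites on 3L, between 27069064 and 27077062, shared words with each other. Folds were 1.36 to 2.76 and pileups 303 to 951. One of them, chr3L:27076528-27077062, lay in a tandem repeat, since the sequence there matched itself at a distance of 361 bp at 72.7% of positions in a window of 1001 bases. To show the repeat, the summit of this site and the bases 361 further on are given 5′ to 3′ on the plus strand of the same build. They are identical at 109 of 121 positions, and capitals mark the 12 that differ.
3L, unit in the site, chr3L:27076860-27076980: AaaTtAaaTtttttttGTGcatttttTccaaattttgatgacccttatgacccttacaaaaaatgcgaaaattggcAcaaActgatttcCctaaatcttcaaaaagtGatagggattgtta
3L, next unit, chr3L:27077221-27077341: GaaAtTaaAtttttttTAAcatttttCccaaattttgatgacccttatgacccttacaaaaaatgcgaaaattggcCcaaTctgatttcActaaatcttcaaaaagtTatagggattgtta

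Annotated transposons overlapped 61 members (25.1%, 20.1 to 30.9) and 35 euchromatic sites (2.80%), a difference of 22.3 points (17.2 to 28.2). The DNA itself differed in the same direction, as transposons covered 14.5% of known bases in the blocks and 3.81% in euchromatin. Relative to that annotated cover the shares of the blocks differed. On chromosome 4, 20 of 49 sites (40.8%) touched a transposon, where 25.1% of bases were transposon, and on X 17 of 43 (39.5%), where 19.9% were. On Y it was 3 of 10, with 5.60% of bases annotated. By contrast it was 6 of 56 on 2L (10.7%), below the 20.4% of its bases, and 1 of 19 on 3R (5.26%, of 8.50%). On 3L it was 14 of 66 (21.2%, of 18.3%). A wide site touches a transposon more readily than a base does, so these shares are not on equal terms. The annotation also names only part of the repeats. Bases marked as repeats in the genome sequence made up 38.8% of 2L, 44.2% of 3R and 53.3% of Y in these blocks. The lovit site of 3L, linked to a flam site over G6 and Stalker4 elements, overlapped no annotated transposon. Whether the blocks differ through the annotation was not tested.

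Each such site was assigned to the family that covered most of it. R1A1, of the rDNA-inserting R1 group, was found at 9 members and no euchromatic site, beside 24 annotated copies in the blocks and 1 in euchromatin, with folds of 1.87 to 2.36 and pileups of 301 to 1808, 6 of them on X and 3 on 3L. INE-1, an old and abundant element, had 8, of which 7 lay on chromosome 4, and 7 in euchromatin. It had 732 annotated copies in the blocks, of which 9 overlapped a member, and 1003 in euchromatin. G6 had 4, all on X. HeT-A, a retrotransposon that maintains Drosophila telomeres, had 4 members and 1 euchromatic site, with 15 copies in the blocks and 11 in euchromatin. Of 282 copies of the DNA transposon hoppel in the blocks, 5 overlapped a member. R1 had 2 and R2 1. The telomere families TART and TAHRE had no copy under these names in the annotation used.

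Chromosome 4 had 40 of its 49 sites in genes (81.6%), against 69.7% of sites in euchromatin. A summit in coding sequence was found at 19 of its 49 sites (38.8%), against 4 of the 184 of the pericentromeric blocks (2.17%), a difference of 36.6 points (23.8 to 50.6), and 18 of the 19 were made of unique words alone. Against euchromatin, where it was 329 of 1250 (26.3%), the interval of the difference included 0 (12.5 points, -0.144 to 26.6). Sites between genes were 9 on chromosome 4 (18.4%) and 127 in the 4 pericentromeric blocks (69.0%), against 379 in euchromatin (30.3%). Between chromosome 4 and euchromatin the interval of this difference included 0 (-12.0 points, -20.7 to 1.27). The share of bases that lie in genes was not measured. Of its 80 protein-coding genes 33 held a site (41.3%, 31.1 to 52.2), against 709 of 10812 in euchromatin (6.56%), and this stood beside a median gene length of 10.1 kb on chromosome 4 and 2.16 kb in euchromatin. Within chromosome 4 the genes with a site were also longer, with a median of 16.3 kb, against 7.22 kb for those without.

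**Figure D5:**
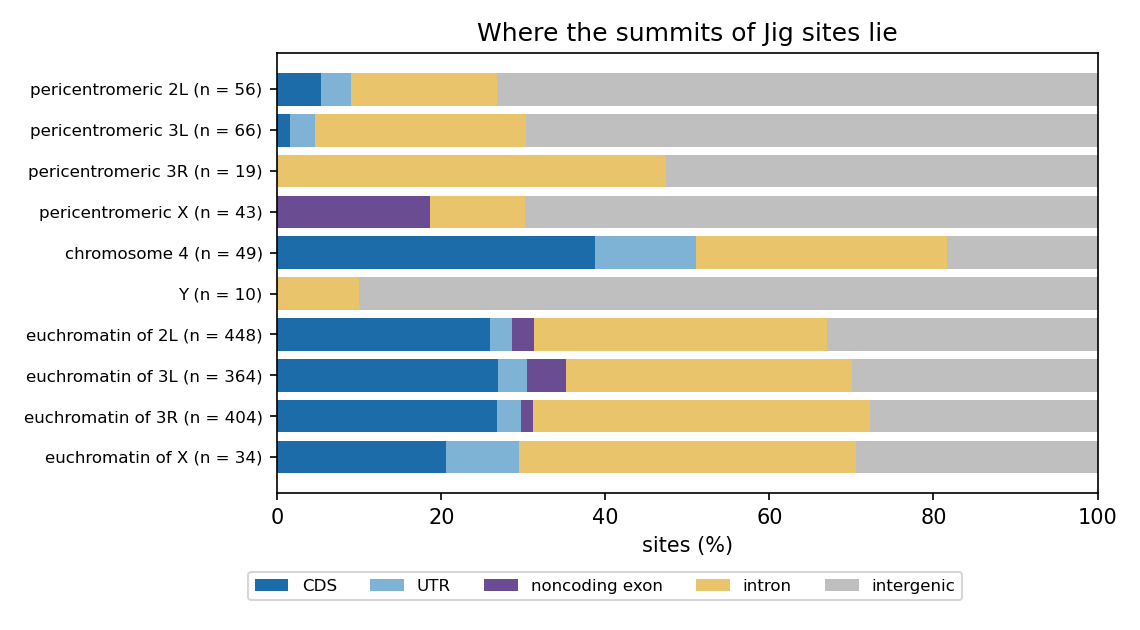
Share of site summits (%) in coding sequence (CDS), untranslated regions (UTR), noncoding exons, introns and between genes, for the 6 blocks and the euchromatin of 4 arms, with the number of sites beside each name. Chromosome 4 has 38.8% in coding sequence, near the arms, while sites between genes make up 69.0% over the 4 pericentromeric blocks.

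Many regulators of development lie on this chromosome. Of 13 listed transcription factors 11 held a site, with folds of 1.31 to 1.71. The highest fold among them was in the coding sequence of ci (cubitus interruptus, the effector of Hedgehog signalling), 1.71 with a pileup of 176. The Pax6 genes of eye development, ey and toy, had folds of 1.35 in an intron of ey, and 1.52 and 1.34 in toy. pan (the TCF factor of Wnt signalling) had 1.55, sv (Pax2) 1.32 and 1.61, and Sox102F 1.40 and 1.48. The remaining sites were those of zfh2 (1.31), fuss (1.43), onecut (1.33), dati (1.35) and Hcf (1.33), while pho and Mitf held none. Euchromatic sites had a median fold of 1.45, with quartiles of 1.38 and 1.55.

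Of 17 listed signalling, synapse and muscle genes 8 held a site, near the share over all protein-coding genes of the chromosome (33 of 80). PlexB, a receptor for semaphorins in axon guidance, had the highest fold of the sites within genes of this chromosome, 3.25, in a 1689 bp site in its coding sequence (chr4:38747-40435, pileup 318, background 97.3). Here 57.0% of words were unique, and the site shared 37.1% of the words of the shorter with an INE-1 site at the end of the chromosome (fold 2.49). PlexA had 1.65. bt (bent, the projectin of muscle) had 1.67 and 1.46, both in coding sequence, and unc-13 (synaptic vesicle priming) had 1.46 and 1.52. dpr7 (a cell-surface immunoglobulin protein) had 1.64, lgs (legless, in Wnt signalling) 1.56, Gat (a GABA transporter) 1.52 and Cadps 1.47. No site lay in Eph, Ephrin, Actbeta, mGluR, Syt7, CaMKI, Ank, Dyrk3 or Crk.

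The telomere-type elements of chromosome 4 were unlike the rest of it. Its 4 HeT-A sites, near the right end of the sequence, had folds of 2.07 to 3.93, pileups of 728 to 1467 and backgrounds of 188 to 697. The widest covered chr4:1302045-1307711 (fold 3.93, pileup 744, background 188). The next in fold among them was chr4:1295022-1296926 (fold 2.93, pileup 776, background 264). The other 45 sites had a median fold of 1.47 (1.43 to 1.53) and a median pileup of 162, and 3 of them reached a fold of 2. Thus 4 of the 7 strong sites of chromosome 4 were HeT-A sites, and 3 of these 4 fell into a single group of linked sites.

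On the Y, 1 of the 12 listed genes held a site, and the same 1 of all 23 protein-coding genes (4.35%). This was Ppr-Y, a Y-linked protein-coding gene of 248 kb, with an intronic site of fold 2.57 and pileup 263. The 2 strongest Y sites lay together in an opus retrotransposon, with folds of 4.59 and 3.07 and pileups of 743 and 870 on backgrounds of 161 and 283. Further along the Y, up to chrY:974735-975116, stood 6 sites whose nearest genes were Suppressor of Stellate, Su(Ste), repeats, which give piRNAs against the Stellate genes of X. Their folds were 1.73, 1.99, 1.75, 1.57, 1.43 and 1.5 in order along the Y, with pileups of 345 to 465. The last site (fold 1.81, pileup 242) lay 2677 bp from FDY, a gene copied to Y from an autosome, and was alone on Y in having unique words throughout.

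Over all blocks, start sites of genes were less often near the members. A summit within 1000 bp of an annotated transcription start was found for 23 members (9.47%), against 297 euchromatic sites (23.8%), a difference of -14.3 points (-18.2 to -9.40), and for none of the 19 sites of 3R or the 10 of Y. The median distance to a start was 12125 bp for members and 2724 bp for euchromatic sites. The blocks other than chromosome 4 held few protein-coding genes (37 on 2L, 37 on 3L, 13 on 3R, 114 on X and 23 on Y), and the part of gene density in this was not tested. On X the shares were 18.6% in the block and 14.7% on the arm, a difference of 3.90 points (-13.9 to 20.2). The starts near sites of the X block were those of rRNA genes, rRNA pseudogenes and an unnamed transcript beside mir-10404-5. None of the 114 protein-coding genes of that block held a site. Chromosome 4 had 22.4% of its sites near a start, a difference of -1.31 points from euchromatin (-11 to 12.3). The word CCACGTC, the core of the element known for CrebA, a transcription factor studied beside Jig in this work, was searched on both strands. It was present in 12 members (4.94%, 2.85 to 8.43) and 43 euchromatic sites (3.44%), beside 2.54% of windows of 422 bp in the blocks and 2.82% of such windows in euchromatin. Sites vary in length, with medians of 422 bp for members and 354.5 bp for euchromatic sites. A longer site holds a word more readily, so sites and windows are not on equal terms.

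Beside the borders, the sites just inside and just outside had folds of 1.56 and 1.36 on 2L, 1.45 and 1.41 on 3L, and 1.97 and 2.22 on X. On 3R both were 1.35, the site inside lying 320 kb and the site outside 191 kb from the border.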

How the data were processed

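ChIP-seq with anti-GFP was done on 3 JIG-GFP and 3 wild-type samples. The authors mapped paired-end reads to dm6 and called sites with MACS2 2.1.1.20160309 (per the submitters' processing notes and the file header) on the pooled JIG-GFP against the pooled wild-type data, with 42962439 and 42368878 fragments (42358424 and 41819151 without duplicates), a fragment size of 262 bp, a genome size of 120000000, a q-value threshold of 0.05 and local windows of 1000 and 10000 bp. The aligner and any filter on reads with several placements are not given in the sources used here, and depth per sample is unknown. Per the file headers each deposited row holds a pileup signal at the summit, a fold ratio against local background, and −log10 p-values and −log10 q-values, all as the authors' caller gave them. The header states that the larger pool, here JIG-GFP, was scaled to the smaller, yet all 1938 pileups were whole numbers. They were taken as unscaled fragments, and which pool was scaled is not settled. Background was computed as (pileup + 1) / fold − 1, and its lowest value was 97.3.

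Sites were placed on the Ensembl 115 annotation and on the genome sequence, with summits for location and whole sites for transposon overlap of at least 1 bp. Densities are per Mb of known bases. Count ratios have exact conditional intervals, shares Wilson intervals, differences of shares Newcombe intervals and medians order-statistic intervals, all at 95% and for counting error only. Python 3.11.15, numpy 2.4.6, pandas 2.3.3, scipy 1.17.1 and matplotlib 3.10.9 were used, and the statistics were tested on simulated data. Members and gene lists were chosen with earlier results of these data known. The text names the 3 sites of highest fold per block (all on Y), the 5 of largest pileup, listed genes with a site and listed transposon families; the lovit neighbour, runs, tandem repeat and shared-sequence groups were chosen after values were seen. Alternatives were other thresholds, borders, transposon definitions, merging, masking, and leaving out chromosome 4 or Y.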

Additional observations from a re-analysis of the deposited data

How the results depend on the processing

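Of 110 recomputed values 78 stayed within the intervals, 29 moved and 3 turned direction. Some of the 78 are no check. Merging sites within 200 bp left all 12 values exactly as they were. Leaving out the rRNA stretch of X cannot change the density ratios of the other blocks. A turn was counted only where the interval of the reported ratio excluded 1, so 3L (0.834, interval including 1), which reached 2.63 and 10.7 under stricter thresholds, is counted as moved. With only sites of −log10 q above 5, density ratios to euchromatin were 2.95 for all blocks, 5.59 for 2L, 2.63 for 3L, 1.01 for 3R (0.481 to 1.91, turned), 3.79 for chromosome 4 and 0.987 for Y, and the members had median folds of 2.02, median pileups of 263 and median lengths of 493 bp, with 52.9% at or above 2-fold. With only sites of a fold of at least 2, the ratios were 7.38, 12.4, 10.7, 6.01 (3R, turned), 8.37 and 1.40 (Y, turned), the medians 2.40, 351 and 574 bp, and 33.7% lay in transposons. With borders 0.5 Mb nearer the centromere, 3R had 0.187. Without chromosome 4 the density ratio was 0.879, the fold 1.82 and the pileup 226.5, and without Y the density ratio was 1.21. Of the alternatives chosen after seeing the data, only sites with at least 50% unique words gave ratios of 1.18 for all blocks, 2.44 for 2L and 4.86 for X. The members then had a median of 1.56 for fold and 174.5 for pileup, with 18.6% at or above 2-fold. X without its annotated rRNA stretch, the sites past it still counted, had 6.21. Apart from the restrictions themselves (fewer sites), the cause of these moves was not tested. Borders 0.5 Mb nearer the arm, merging sites within 200 bp, unmasked bases, 3 other definitions of transposon overlap and chromosome 4 without HeT-A sites moved no value beyond its interval.

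No paired analysis was possible because the call pooled the samples and the list gives no value of any single sample, and leaving out each replicate was not run for the same reason. Counting intervals treat sites as independent, which sites with shared sequence are not. Read placement in repeats, copy number in the 2 stocks and the tissues holding tagged protein were not measured, and small blocks (10 sites on Y, 19 on 3R) resolve only large differences.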
